A study of Homo sapiens with 8 samples.

Results

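The retinoblastoma (RB) pathway was described here in Saos-2 cells by 10 listed genes: the pocket protein genes RB1, RBL1 and RBL2, the CDK inhibitor genes CDKN2A and CDKN2C, the D-type cyclin genes CCND1 and CCND3, the kinase genes CDK4 and CDK6, and the transcription factor gene E2F3. The members were the probe sets that the array's annotation assigns to exactly 1 gene, that gene being one of the 10. This gave 25 probe sets of 9 genes, out of 54613 probe sets that were not controls. CDKN2C had no such probe set in the annotation used and was not analysed here. RNA was measured on 8 arrays, 1 per sample: 3 of untreated cells (replicates 1, 2 and 3), 3 of cells treated with Prima for 6 h (replicates 1, 2 and 3) and 2 of cells treated with Prima for 12 h (replicates 1 and 3). The cells, an established osteosarcoma cell line of human origin, are p53-null in all 3 groups. The study asked how this compound affects the transcriptome of cells without p53. The untreated arrays were from cells kept without treatment, and no vehicle control or dose is named in the labels.

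The RB protein and its relatives p107 (RBL1) and p130 (RBL2) bind E2F transcription factors and hold their target genes silent in G1. Cyclin D bound to CDK4 or CDK6 phosphorylates the pocket proteins and releases E2F, and the INK4 proteins, p16 among them, block those kinases. Tumours tend to lose either RB or p16 and seldom both, since p16 has little to restrain where RB is gone, and lines without functional RB typically carry much p16. Saos-2 is such a line: it is known for a deletion of the 3′ exons of RB1 that leaves a truncated, inactive protein. Each group shares this defect, and the measured RB1 transcript is therefore not a measure of working RB protein. The sources used here do not say which part of a transcript each probe set reads, so the deletion itself was not examined.

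The stretches upstream of 4 transcript starts are shown because RBL1 and E2F3 are themselves known targets of E2F factors, and because CDKN2A has separate starts for p16 and for ARF, the alternative product that shields p53 from MDM2. The sequences are RefSeq's, on build GRCh38.p14, 250 bases ending just before the start and read on the gene's own strand. Capitals mark the E2F words searched for on both strands (TTTCGCGC, TTTGGCGC, TTTCCCGC and TTTGCCGC). RBL1 lies at chr20:37095998-37096247 on the minus strand and E2F3 at chr6:20401629-20401878 on the plus strand. The p16 start lies at chr9:21974858-21975107 and the ARF start at chr9:21995325-21995574, both on the minus strand.
RBL1: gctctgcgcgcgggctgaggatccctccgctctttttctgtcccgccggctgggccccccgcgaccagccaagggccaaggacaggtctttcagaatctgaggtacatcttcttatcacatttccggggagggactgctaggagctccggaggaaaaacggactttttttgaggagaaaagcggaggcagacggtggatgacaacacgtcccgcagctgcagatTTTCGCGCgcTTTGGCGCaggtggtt
E2F3: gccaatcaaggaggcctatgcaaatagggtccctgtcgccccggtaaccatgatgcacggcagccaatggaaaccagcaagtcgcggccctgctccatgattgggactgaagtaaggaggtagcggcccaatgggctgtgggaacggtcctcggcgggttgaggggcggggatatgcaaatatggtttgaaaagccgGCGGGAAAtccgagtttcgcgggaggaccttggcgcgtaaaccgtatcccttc
CDKN2A (p16 start): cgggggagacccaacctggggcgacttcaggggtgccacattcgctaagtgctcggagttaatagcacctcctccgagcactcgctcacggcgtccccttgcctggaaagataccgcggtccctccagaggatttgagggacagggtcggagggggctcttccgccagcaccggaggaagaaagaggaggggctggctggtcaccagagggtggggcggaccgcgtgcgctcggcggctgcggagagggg
CDKN2A (ARF start): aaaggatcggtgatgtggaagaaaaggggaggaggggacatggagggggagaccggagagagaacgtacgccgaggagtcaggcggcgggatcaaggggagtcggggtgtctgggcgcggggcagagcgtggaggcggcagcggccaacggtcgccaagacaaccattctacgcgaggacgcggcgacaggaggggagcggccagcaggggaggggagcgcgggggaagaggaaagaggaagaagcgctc
RBL1 held TTTCGCGC and TTTGGCGC, which begin 26 and 16 bases before its start. E2F3 held TTTCCCGC on the opposite strand, printed as GCGGGAAA, 53 bases before its start. The window of the other E2F3 start in RefSeq, chr6:20403364-20403613 on the plus strand, held none and is not printed. Neither CDKN2A window held any of the 4 words. Across RefSeq, 979 of 35116 windows of this length (2.79%) held at least 1 of them, and among the listed genes 2 of 17 windows did, counting several starts per gene. CCND1 had no window, and the only RB1 window, chr13:48476200-48476449, lies inside the gene. The main starts of these genes were therefore not searched. A match is a run of letters and not a shown binding site.

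The values are MAS5 signals, the array's linear brightness for a probe set, scaled by the authors so that every array has the same trimmed mean. A probe set's brightness depends on its own probes, so signals are compared between arrays and never between probe sets. Differences are log2 ratios of signals floored at 2.385, the 10th percentile of all values, so changes of dim probe sets are understated. Of the 25 member probe sets, 19 had a mean above the filter (the median probe set) and were tested, at least 1 for each of the 9 genes. The other 6 are given by their values. Standard errors (SE), 95% confidence intervals and p-values come from limma fitted over 27306 probe sets, with Benjamini-Hochberg adjustment over all of them. Every array holds RNA from a whole culture, so a fall in the number of cells of one kind and a fall in RNA per cell cannot be told apart.

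The replicate 2 arrays stood apart in the series and in several members. Their median signals were 47.5 at 6 h and 50.9 in untreated cells, against 14.2 to 24.95 on the other 6 arrays, and 0.0713% and 0.0622% of their values stood at the floor, against 6.26% to 20.8% elsewhere. Among the 19 tested members, both lay below the other 6 arrays in 4 (RB1 211540_s_at, CDK4, CDK6 224851_at and E2F3 203693_s_at), and both above in 3 (RBL1 1555004_a_at, CCND1 208712_at and CDK6 243000_at). Over all probe sets these placements were found in 16.4% and 20.2%. The 12 h group holds no replicate 2 array, so each 12 h difference sets arrays numbered 1 and 3 against a group that also has a number 2, unless same-numbered arrays are compared.

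No member probe set passed the test (adjusted p under 0.05) at 6 h or 12 h against untreated, or at 12 h against 6 h. The background was the same: 0 of 27306 probe sets passed in any of the 3 comparisons by limma, a share of 0%. At an unadjusted p under 0.05, 1 of the 19 members stood at 6 h against untreated, where 0.63% of all probe sets did, and none stood at 12 h against untreated, where 0.809% did. None stood at 12 h against 6 h either, where 0.89% did. With the replicate number as a block (a fit that compares same-numbered arrays), 0 probe sets passed, and at an unadjusted p under 0.05 the members numbered 1 at 6 h against untreated (beside 4.4% of all), 0 at 12 h against untreated (beside 2.9%) and 1 at 12 h against 6 h (beside 3.03%). The member was RBL2 212332_at both times. The SEs of the member differences ran from 0.23 to 0.87 (log2) at 6 h and from 0.26 to 0.98 at 12 h. Differences of about these sizes were not detectable with 3 or 2 arrays a group, and larger ones also failed. RBL2 212332_at did not pass at 1.36 ± 0.43 (6 h against untreated with the replicate block, limma adjusted p = 0.841).

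**Figure D1:**
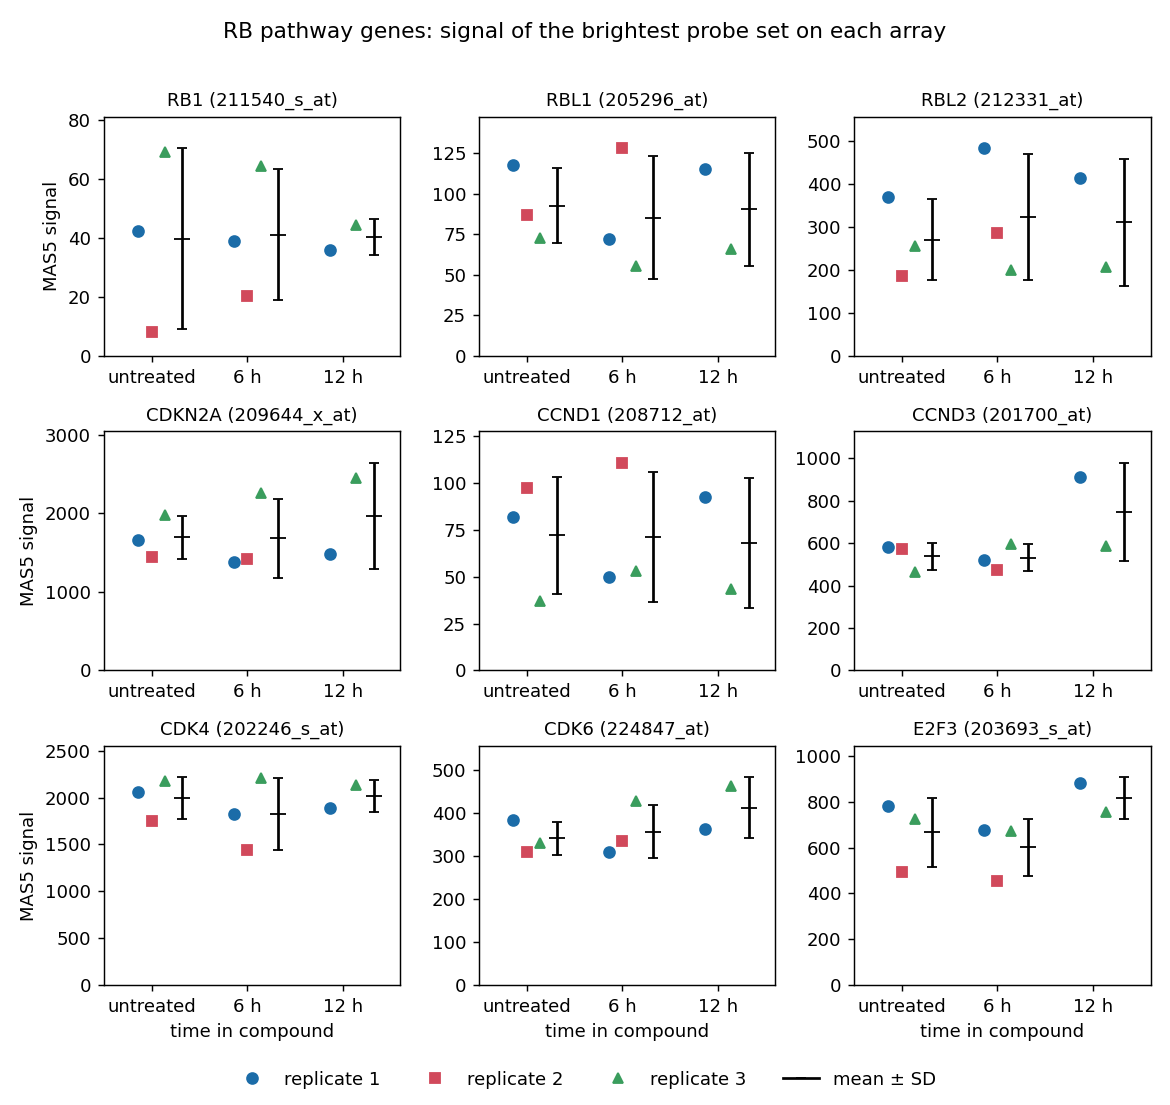
MAS5 signal (linear scale, arbitrary units) of the brightest probe set of each of the 9 measured genes on each of the 8 arrays, by group in order of time. Points are arrays, with colour and shape for the replicate number, and the bar beside each group is its mean ± SD. CCND3 is the panel in which both 12 h arrays lie above every untreated array, at 912 and 585, as in 7.57% of all probe sets.

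The 3 pocket protein genes showed no change that passed the test. RB1 was read by 211540_s_at with signals of 42.3, 7.97 and 69.4 on the untreated arrays, 39.0, 20.3 and 64.4 at 6 h, and 36.1 and 44.6 at 12 h. The groups overlapped, and the replicate 2 arrays were the lowest of the 8. RB1 differed by 0.37 ± 0.79 (log2, SE; 95% interval -1.33 to 2.08) at 6 h against untreated and by 0.49 ± 0.88 at 12 h against untreated. With the replicate block the 12 h difference was -0.19, and without both replicate 2 arrays -0.43, so its direction is not settled. The other RB1 probe set, 203132_at, was dim: it read 10.6 and 38.2 on the replicate 2 arrays of 6 h and untreated cells, at most 3.28 on the other 6, and stood under the floor on 3 of them. The probe sets of RB1 placed the replicate 2 arrays on opposite sides of the others, and neither separated treated from untreated cells.

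RBL1 encodes p107, which is itself made in proliferating cells under E2F control. Its brightest probe set, 205296_at, read 118, 87.2 and 72.5 in untreated cells, 72.3, 128 and 55.4 at 6 h, and 115 and 65.7 at 12 h. The ranges of the 3 groups lay across each other, and the differences from untreated were -0.18 ± 0.42 at 6 h and -0.06 ± 0.47 at 12 h. RBL1's other tested probe sets, 1555004_a_at and 1559307_s_at, differed by -0.16 ± 0.62 and -0.64 ± 0.87 at 6 h and by -0.51 ± 0.69 and -0.34 ± 0.98 at 12 h, also with overlapping groups. The fourth, 1555003_at, fell below the filter, with signals of 4.20 to 28.0 in untreated cells, 2.18 to 16.5 at 6 h, and 0.144 and 14.2 at 12 h.

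RBL2 encodes p130, the pocket protein of resting cells, and held the one member value with an unadjusted p under 0.05. Its dimmer probe set 212332_at read 19.2, 21.4 and 45.0 in untreated cells, 58.9, 79.0 and 66.9 at 6 h, and 16.4 and 58.3 at 12 h. All 3 arrays at 6 h lay above all 3 untreated arrays, a separation in this direction that 1.96% of all probe sets showed, while at 12 h replicate 1 was below every untreated array and replicate 3 above every one. The difference at 6 h was 1.36 ± 0.61 (95% interval 0.04 to 2.67; limma adjusted p = 1), and with the replicate block 1.36 ± 0.43 (adjusted p = 0.841). At 12 h against untreated it was 0.23 ± 0.68, and at 12 h against 6 h -1.13 ± 0.68 (adjusted p = 1), with both 12 h arrays below all 3 at 6 h, as 6.38% of all probe sets were. The 6 h difference was above 0 in all 20 settings in which RBL2 212332_at was fitted, from 0.75 to 1.74. Since the 6 h and untreated arrays did not overlap, leaving out arrays could not change that sign, and the count adds no support.

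The brighter RBL2 probe set did not share that separation. 212331_at read 370.0, 185 and 256 in untreated cells, 483, 285 and 199.7 at 6 h, and 414 and 206 at 12 h. Its groups overlapped, with differences of 0.22 ± 0.39 (95% interval -0.62 to 1.06) at 6 h and 0.17 ± 0.43 at 12 h against untreated. Within same-numbered arrays it was above untreated in replicates 1 and 2 at 6 h, by 0.38 and 0.63, and below in replicate 3, by -0.36. The interval of the brighter probe set does not reach the 1.36 of the dimmer one, and whether the probe sets differ was not tested.

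CDKN2A encodes p16 and ARF, and neither of its tested probe sets passed the test. The probe set 209644_x_at read 1655, 1443 and 1980.1 in untreated cells, 1374, 1414 and 2259.6 at 6 h, and 1488 and 2447 at 12 h. The replicate 3 arrays were the highest of each group, and the groups overlapped. The group means were 1693 ± 271 in untreated cells (SD, n = 3), 1683 ± 500.1 at 6 h (SD, n = 3) and 1968 ± 678 at 12 h (SD, n = 2). The differences were -0.04 ± 0.27 (95% interval -0.63 to 0.56) at 6 h and 0.19 ± 0.31 (-0.48 to 0.85) at 12 h. The letter x in such a name marks probes that can also bind other transcripts.

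A second CDKN2A probe set, 207039_at, was slightly higher in each treated array than in its same-numbered untreated one. It read 556, 334 and 422 in untreated cells, 587, 436 and 514 at 6 h, and 597 and 574 at 12 h. Both 12 h arrays were above all 3 untreated arrays, a separation that 7.57% of all probe sets showed, while the 6 h arrays overlapped them. The paired differences (log2) were 0.08, 0.39 and 0.28 at 6 h and 0.10 and 0.44 at 12 h, and 6.47% of all probe sets were likewise above in all 5 pairs, which share their untreated arrays between times. The fitted differences were 0.25 ± 0.26 (95% interval -0.31 to 0.81; adjusted p = 1) at 6 h and 0.45 ± 0.29 (-0.17 to 1.08; adjusted p = 1) at 12 h against untreated, and 0.31 ± 0.18 at 12 h with the replicate block and 0.27 without both replicate 2 arrays. They were above 0 in all 21 settings in which CDKN2A 207039_at was fitted, from 0.05 to 0.44 at 6 h and from 0.23 to 1.03 at 12 h. At 12 h leaving out arrays could not change the sign, since the groups did not overlap, so that count adds no support. CDKN2A's remaining probe set, 211156_at, lay below the filter with 3.55 to 47.1 in untreated cells, 4.54 to 14.1 at 6 h, and 4.88 and 7.89 at 12 h.

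**Figure D2:**
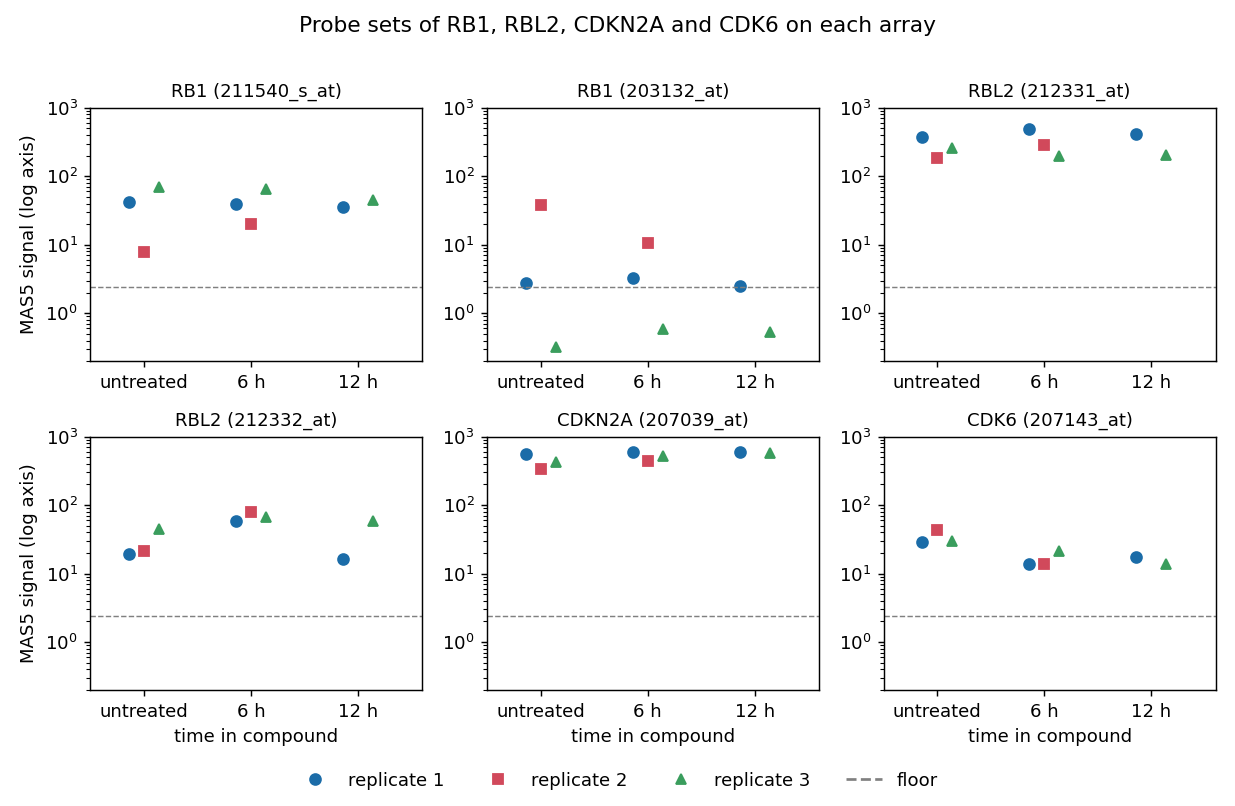
MAS5 signal (log axis, arbitrary units) of 6 probe sets of RB1, RBL2, CDKN2A and CDK6 on each of the 8 arrays, by group in order of time, with points for arrays and a dashed line at the floor of 2.385. RB1 211540_s_at has the replicate 2 arrays lowest and 203132_at has them highest. CDK6 207143_at has all 5 treated arrays, at 13.8 to 21.2, below the 3 untreated ones, at 29.4 to 43.9. It passed the filter only through the untreated group, so it had to differ.

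Of the D-type cyclins, the growth-factor-responsive partners of CDK4 and CDK6, neither CCND1 nor CCND3 passed the test. CCND1 208712_at read 81.8, 97.7 and 37.4 in untreated cells, 49.8, 111 and 53.0 at 6 h, and 92.9 and 43.6 at 12 h. The groups coincided, with differences of -0.01 ± 0.51 (95% interval -1.12 to 1.10) at 6 h and -0.07 ± 0.57 at 12 h. CCND1 208711_s_at differed by -0.29 ± 0.62 at 6 h and -0.51 ± 0.70 at 12 h, with signals of 36.9, 82.3 and 25.6 in untreated cells, 26.1, 42.4 and 38.1 at 6 h, and 45.9 and 19.5 at 12 h. Its highest array was the untreated replicate 2, and the groups overlapped.

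CCND3 201700_at read 579.9, 571 and 463 in untreated cells, 523, 471 and 598 at 6 h, and 912 and 585 at 12 h. Both 12 h arrays exceeded all 3 untreated arrays, replicate 3 only narrowly and replicate 1 by a wide margin. Such a separation was found in 7.57% of all probe sets, and the 6 h and untreated arrays of CCND3 overlapped. The differences were -0.02 ± 0.25 (95% interval -0.56 to 0.53) at 6 h and 0.45 ± 0.28 (-0.16 to 1.06; adjusted p = 1) at 12 h, and 0.43 ± 0.22 at 12 h with the replicate block. Without the 12 h replicate 1 array the 12 h difference of CCND3 was 0.13. That array also had the highest ratio of 3′ to 5′ signal for the control transcript ACTB, at 2.29 against 1.12 to 1.73 on the other 7. A high ratio is a sign of RNA degradation or short labelled products. For the control transcript GAPDH its ratio was 1.04, close to the 0.927 to 1.01 of the other 7. The part of this array's RNA quality in the CCND3 value was not tested. A second CCND3 probe set, 1562028_at, lay below the filter and was erratic, with 1.41 to 7.91 in untreated cells, 2.66 to 98.6 at 6 h, and 2.69 and 7.20 at 12 h.

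CDK4, the kinase partner of the D cyclins that p16 inhibits, had 1 probe set, and it was the steadiest of the tested members at 6 h by its SE. 202246_s_at read 2062, 1749.7 and 2177 in untreated cells, 1821, 1440.0 and 2206 at 6 h, and 1892 and 2132 at 12 h. Its groups overlapped, and the lowest array at 6 h and in untreated cells was replicate 2. The differences were -0.15 ± 0.23 (95% interval -0.65 to 0.35) at 6 h and 0.01 ± 0.26 (-0.54 to 0.57) at 12 h, so these data leave room for changes of up to those bounds.

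CDK6, the close relative of CDK4, had the most probe sets, 7, of which 5 were tested. The brightest, 224847_at, read 384, 309 and 332 in untreated cells, 309, 336 and 428 at 6 h, and 363 and 464 at 12 h, with overlapping groups. It differed by 0.06 ± 0.26 at 6 h and 0.27 ± 0.29 at 12 h. CDK6 224851_at and 224848_at differed by 0.05 ± 0.30 and 0.13 ± 0.29 at 6 h and by 0.07 ± 0.34 and 0.27 ± 0.33 at 12 h. With the replicate block the 12 h difference of 224851_at was -0.16, and it was below 0 in 6 of its 21 settings. These 3 probe sets ran from 166 to 489 over the 8 arrays, and none separated the groups. CDK6 243000_at read 27.2 to 68.5 in untreated cells, 17.8 to 86.4 at 6 h, and 15.6 and 51.8 at 12 h, with both replicate 2 arrays above the other 6 and differences of 0.00 ± 0.71 and -0.55 ± 0.79.

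One dim CDK6 probe set was lower in treated cells, without passing the test. 207143_at read 29.4, 43.9 and 29.6 in untreated cells, 13.8, 13.9 and 21.2 at 6 h, and 17.2 and 14.0 at 12 h. All 5 treated arrays were below all 3 untreated arrays. Its mean log2 signal was 5.07 in untreated cells, 3.995 at 6 h and 3.955 at 12 h, so it passed the filter (4.216) only through the untreated group. A probe set that passed in that way had to differ, and the shares beside it are given for scale and support nothing. All 5 treated arrays lay below all 3 untreated arrays in 0.524% of all tested probe sets. No member had all 5 above, where 0.78% of all did. Separations downward from untreated were found in 1.63% of all probe sets at 6 h and 6.54% at 12 h. The paired differences were -1.09, -1.66 and -0.48 at 6 h and -0.77 and -1.08 at 12 h, and 5.8% of all probe sets were likewise below in all 5 pairs. The fitted differences were -1.08 ± 0.77 (95% interval -2.73 to 0.58; adjusted p = 1) at 6 h and -1.12 ± 0.86 (-2.97 to 0.73; adjusted p = 1) at 12 h. The untested CDK6 probe sets 235287_at and 231198_at read 2.01 to 43.5 and 5.62 to 34.6 over all arrays, with overlapping groups.

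E2F3 encodes an activating E2F that drives entry into S phase and is held by RB. Its brightest probe set, 203693_s_at, read 781, 496 and 726 in untreated cells, 676, 456 and 671 at 6 h, and 882 and 754 at 12 h. Each 6 h array was a little below its same-numbered untreated array, by -0.21, -0.12 and -0.11, and each 12 h array a little above, by 0.18 and 0.05. Both 12 h arrays were above all 3 at 6 h, as 5.46% of all probe sets were. The differences were -0.15 ± 0.27 at 6 h and 0.32 ± 0.30 at 12 h against untreated, and 0.46 ± 0.30 at 12 h against 6 h (adjusted p = 1). With the replicate block the last was 0.27 ± 0.16 (adjusted p = 0.99). Without both replicate 2 arrays, which had the lowest E2F3 signals, the 12 h difference from untreated was 0.11. E2F3 203692_s_at read 152, 249.6 and 166 in untreated cells, 101, 194 and 213 at 6 h, and 163 and 249.5 at 12 h, with overlapping groups and differences of -0.20 ± 0.36 at 6 h and 0.13 ± 0.40 at 12 h.

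**Figure D3:**
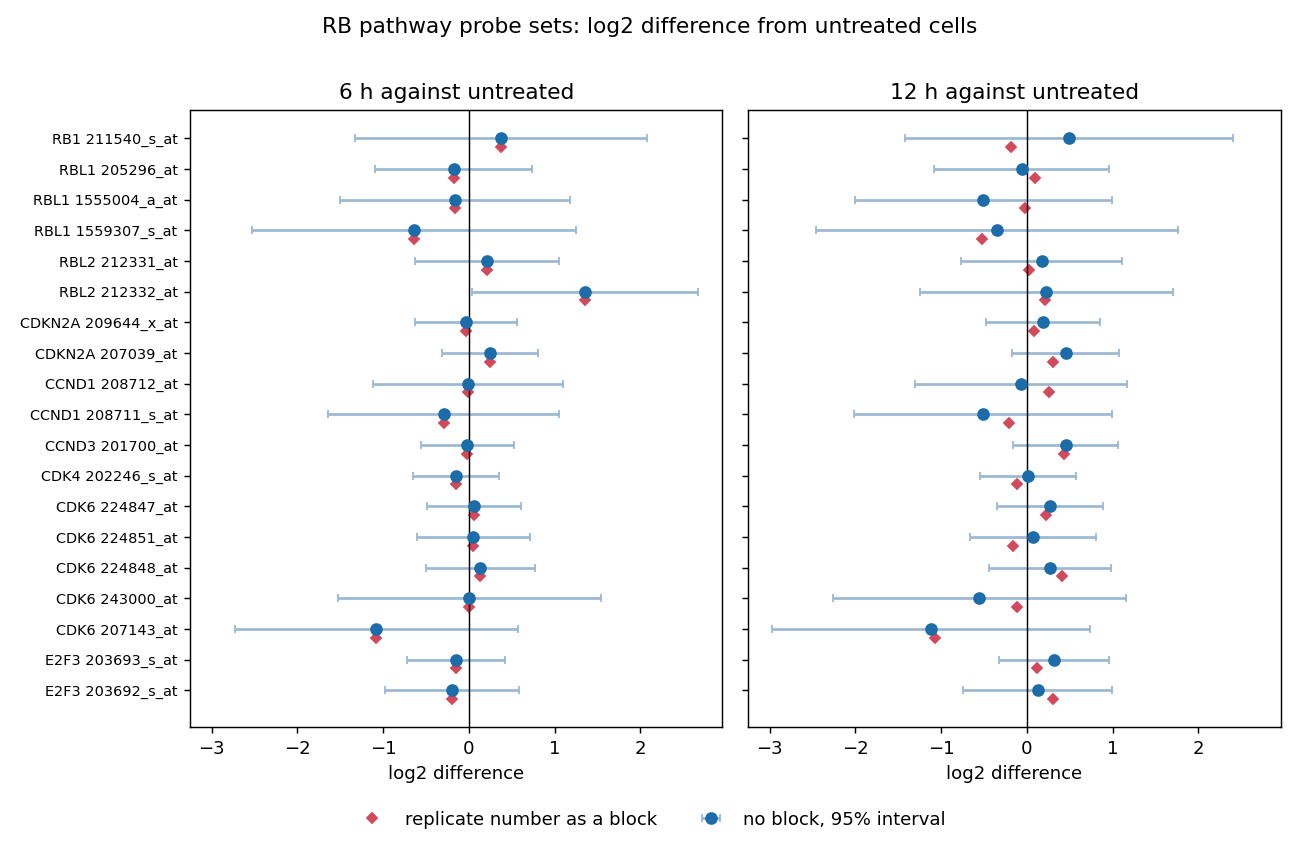
Log2 difference from untreated of the 19 tested member probe sets at 6 h and 12 h, as circles with 95% confidence intervals from limma (3 arrays at 6 h, 2 at 12 h and 3 untreated), and as diamonds with the replicate number as a block. Only the 6 h interval of RBL2 212332_at lies off 0, from 0.04 to 2.67, and its adjusted p was 1.

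Over the 19 tested member probe sets, 8 were above and 11 below 0 at 6 h, with a median of -0.02 against 0.01 for all probe sets. At 12 h against untreated, 12 were above and 7 below, with a median of 0.13 against 0.00 over all. The gap was smaller among bright probe sets. With the filter at the 75th percentile of mean signal, 11 members remained, with a 12 h median of 0.19 against 0.12 over all. Under quantile normalization the 19 had a median of 0.12 against 0.07 over all. The 12 h median turned to -0.04 without the untreated replicate 2 array (9 of 19 above 0) and with array weights (8 of 19), so its direction rests on 1 array. At 6 h the median was 0.09 without the 6 h replicate 1 array (11 of 19). CDK6 207143_at passed the filter through 1 group alone. RBL1 1559307_s_at passed it through 2 groups, with its 6 h mean below it. These counts therefore describe the tested probe sets and support nothing more. The groups did not overlap for 2 of the 19 at 6 h against untreated (10.5%, beside 3.59% of all probe sets), for 3 at 12 h against untreated (15.8%, beside 14.1%) and for 2 at 12 h against 6 h (10.5%, beside 11.8%). The shares are near the background in both 12 h comparisons, and the 6 h share is 2 probe sets, RBL2 212332_at and CDK6 207143_at, of which the CDK6 one had to differ.

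As a check of the labelled cells, all 8 measured markers of the osteoblast lineage were above the filter, RUNX2 and COL1A1 among them. Their summed signals were 6767 to 8359 in untreated cells, 6258 to 9146 at 6 h, and 8327 and 8539 at 12 h. Of the markers of other cells, 1 of 3 measured leukocyte genes (PTPRC), 1 of 4 endothelial genes (PECAM1) and 3 of 5 epithelial genes (KRT18, EPCAM and KRT8) were above it. The sums of the leukocyte and endothelial lists were at most 155 and 277 on any array, and the epithelial sum was 556 to 975 in untreated cells, 678 to 2303 at 6 h, and 941 and 978 at 12 h. The part of these markers in the member values was not tested.

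The rest of the pathway was followed through 8 lists, each gene by its brightest probe set, and no gene of any list passed the test in either direction at either time. Counts above 0 are for the scaling as deposited: centring each array on its median moved the median of all probe sets at 12 h against untreated to 0.59, and 9 of the 9 member genes, by their brightest probe set, were then above 0, against 7 as deposited. Single arrays also decided the counts of several lists, so the range is given for leaving out 1 array at a time. Of the CDK inhibitors other than p16, 5 were tested, with 2 above and 3 below 0 at each time. Their median ran from -0.35 (without 6 h replicate 1) to 0.13 (without 6 h replicate 2) at 6 h and from -0.22 (without 12 h replicate 1) to 0.14 (without 12 h replicate 3) at 12 h. CDKN1C, which encodes p57, was lowest of them at 6 h, at -0.81 ± 0.45, and at -0.01 at 12 h. CDKN2B, the p15 gene beside CDKN2A, differed by -0.36 ± 0.32 at 6 h and 0.11 at 12 h, and CDKN2D by 0.00 and -0.21. CDKN1A, the p21 gene and the classical target of p53, read 135.8, 142.2 and 115.4 in untreated cells, 283.5, 113.2 and 153.3 at 6 h, and 115.3 and 112.3 at 12 h. Its 6 h difference of 0.38 ± 0.36 came with a high replicate 1 array, while replicates 2 and 3 lay just below and just above the untreated range. Both 12 h arrays were just below all 3 untreated arrays, as in 6.54% of all probe sets, with a difference of -0.20.

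Of the other G1 cyclins and kinases 9 of 10 were tested, with 4 above 0 at 6 h (median -0.04) and 6 at 12 h (median 0.22). Without the untreated replicate 2 array 1 of 9 was above 0 at 6 h (median -0.15) and 3 of 9 at 12 h (median -0.09), so the 12 h direction turned with that array. At 6 h the median ran from -0.18 (without 6 h replicate 3) to 0.08 (without 6 h replicate 2), and at 12 h it was 0.06 without 12 h replicate 1. With the replicate block the 12 h median was 0.07. Under quantile normalization it was 0.06, beside 0.07 for all probe sets. CDK2, the partner of cyclin E, differed by -0.43 ± 0.29 at 6 h and -0.26 at 12 h, and CDC25A, the phosphatase that activates it, by -0.56 ± 0.44 and -0.16. MNAT1 and CDK7, subunits of the kinase that activates the cell cycle CDKs, differed by 0.79 ± 0.63 and 0.23 at 6 h and by 0.84 ± 0.70 and 0.54 at 12 h. Among the 9 E2F and DP genes, 5 were above 0 at 6 h and 6 at 12 h. Their median ran from -0.17 (without untreated replicate 2) to 0.14 (without 6 h replicate 2) at 6 h and from 0.05 (without 12 h replicate 3) to 0.17 (without untreated replicate 3) at 12 h. E2F2, an activating E2F, differed by 0.46 ± 0.36 at 6 h and 0.60 ± 0.40 at 12 h. Its 12 h arrays were both above all 3 untreated arrays, as in 7.57% of all probe sets. The DP genes TFDP1 and TFDP2 differed by 0.31 and -0.52 ± 0.39 at 6 h and by 0.32 and 0.07 at 12 h, and the repressive E2F7 by -0.07 and 0.32.

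The E2F target genes of S phase entry are the list that the pocket proteins repress. Of 19 tested, 9 were above 0 at 6 h, with a median of -0.02, and 18 at 12 h, with a median of 0.21 beside 0.00 for all probe sets. The 12 h count was 15 of 19 with the replicate block (median 0.11) and 11 of 19 without the untreated replicate 2 array (median 0.07). Leaving out 1 array at a time, the 6 h count ran from 3 (without untreated replicate 2) to 12 of 19 (without untreated replicate 3). Under quantile normalization 15 of 19 were above 0 at 12 h, with a median of 0.06 beside 0.07 for all probe sets. All 19 are bright and also passed the filter at the 75th percentile. Over all probe sets past that filter the 12 h median was 0.12, not 0.00, and 15 of the 19 genes lay above it. ORC1, RRM1 and CDT1, for the origin recognition complex, ribonucleotide reductase and origin licensing, differed by 0.45 ± 0.34, 0.37 and 0.44 at 12 h and by 0.21, 0.07 and -0.15 at 6 h. TK1, thymidine kinase, was the exception below 0 at 12 h, at -0.09, and differed by -0.32 ± 0.24 at 6 h.

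The partners of the pocket proteins gave no call either. In the list of the MuvB core, which joins p107 or p130 in the repressive DREAM complex, and its activating partner B-Myb, 4 of 6 genes were above 0 at 6 h and 3 of 6 at 12 h, with medians of 0.19 and -0.06. The median ran from 0.12 (without untreated replicate 3) to 0.21 (without untreated replicate 1) at 6 h and from -0.18 (without untreated replicate 2) to 0.07 (without 12 h replicate 1) at 12 h. LIN9 differed by 0.14 at 6 h and -0.71 ± 0.52 at 12 h, and MYBL2, the B-Myb gene, by 0.23 and 0.20. RBBP4 differed by -0.12 and -0.21 and LIN37 by 0.23 and 0.09. Of 13 tested chromatin regulators that bind RB, 8 were above 0 at 6 h (median 0.21) and 9 at 12 h (median 0.24). The 6 h median was 0.03 without 6 h replicate 1 and also 0.03 without untreated replicate 2, and 0.11 without 6 h replicate 3. The 12 h median was 0.14 with the replicate block and also 0.14 without 12 h replicate 1. SUV39H1, a histone H3 methyltransferase, differed by 0.35 at 6 h and 0.68 ± 0.44 at 12 h, and the remodeller SMARCA4 by 0.13 and 0.44. The DNA methyltransferase DNMT1 and the deacetylase HDAC3 differed by 0.30 and 0.31 at 6 h and by 0.38 and 0.44 at 12 h.

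Of the Polycomb genes and other regulators of the INK4A locus, 7 of 11 tested were above 0 at 6 h and 10 of 11 at 12 h, with medians of 0.04 and 0.21. At 6 h the median ran from -0.16 (without untreated replicate 2) to 0.24 (without 6 h replicate 2). The 12 h count was 7 of 11 without untreated replicate 2 (median 0.12) or without 12 h replicate 1 (median 0.08), and 8 of 11 with the replicate block (median 0.12) or quantile normalization (median 0.14, beside 0.07 for all probe sets). Without 12 h replicate 3 it was 10 of 11 (median 0.37). TBX2, a T-box repressor known from mouse cells to act on ARF, differed by 0.88 ± 0.88 at 6 h and 1.51 ± 0.98 at 12 h by a probe set with signals between 8.26 and 77.4. ID1, an inhibitor of the Ets activators of p16, was the gene below 0 at 12 h, at -0.56 ± 0.40, the Polycomb subunit SUZ12 stood at 0.45 and the activator ETS2 at 0.43. Of the genes for turnover of the D cyclins 5 of 8 tested were above 0 at 6 h and 6 of 8 at 12 h, with medians of 0.09 and 0.29. The median ran from -0.12 (without 6 h replicate 3) to 0.23 (without 6 h replicate 2) at 6 h and from 0.02 (without untreated replicate 2) to 0.49 (without 12 h replicate 3) at 12 h. At 12 h it was 0.11 with the replicate block (5 of 8 above 0). Under quantile normalization it was 0.15, beside 0.07 for all probe sets. The F-box gene FBXO31 differed by 0.19 at 6 h and 0.96 ± 0.65 at 12 h, and the ligase genes DDB1 and AMBRA1 by 0.01 and 0.28 at 6 h and by 0.37 and 0.36 at 12 h. USP2, a deubiquitinase of cyclin D1, differed by -0.09 and 0.45.

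**Figure D4:**
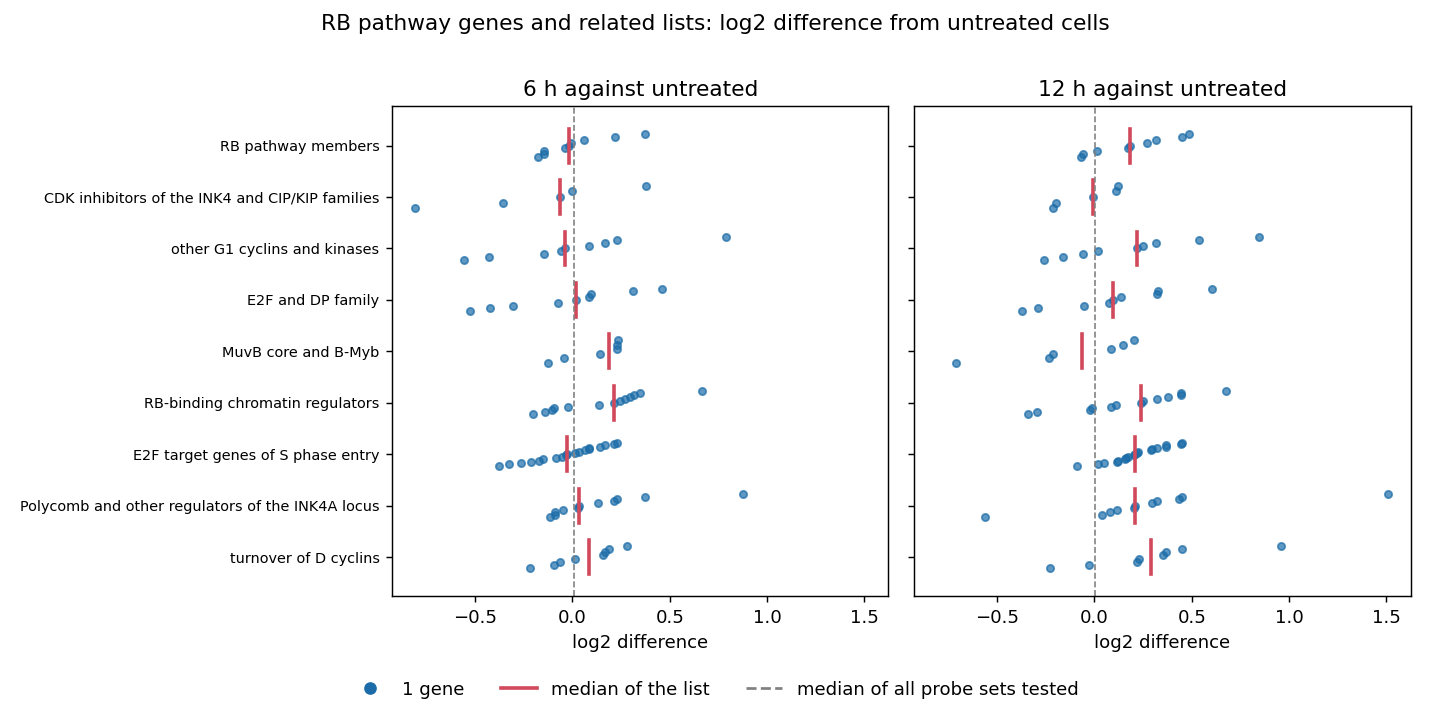
Log2 difference from untreated of the genes of each pathway list at 6 h and 12 h, 1 point per gene by its brightest probe set, with the list's median as a bar. The dashed line is the median of all probe sets tested. No gene passed the test, and 18 of 19 E2F target genes lie above 0 at 12 h, where the count was 11 of 19 without the untreated replicate 2 array.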

How the data were processed

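The deposited values are linear probe-set intensity, which the authors made with MAS5, per the submitters' processing notes. Its version and settings are not given in the sources used here. Gene symbols came from a platform annotation: of 54675 probe sets 62 were controls, 41091 had 1 gene, 1801 had several and 11721 were unnamed.

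Groups came from the labels. Nothing says that replicates were separate cultures, so a p-value reflects only how these samples vary, and that may be technical. The number of arrays limits the precision. No pair of arrays shared more than 1 identical value. Signals under the 10th percentile (2.385) were raised to it before log2 was taken. A probe set was tested if its mean log2 signal exceeded 4.216, the median. Two-sided tests were made with limma 3.58.1 in R 4.3.3 (eBayes with a variance trend on a fit of 3 groups), for 27306 probe sets, with Benjamini-Hochberg adjustment and a threshold of 0.05. The scripts were tested on simulated data.

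The members and the gene lists were chosen with earlier results of these data known, and no list was tested as a set. All member probe sets are named. From each other list up to 4 genes are named, those with the smallest unadjusted p at 6 h or 12 h. ARID4A, BMI1, CBX8 and RNF2 were not analysed here, nor were the markers BGLAP and CD68, since no probe set was annotated to them alone. A part of the lists is not reported here.

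Arrays with the same replicate number deviated together: their deviations from the group means correlated at 0.197 to 0.624 in 7 pairs of arrays, against -0.531 to 0.249 in the 14 others. With 2 arrays at 12 h their deviations are equal and opposite, so part of the negative values was built in and the pairs are not independent. Replicate 1 arrays correlated at 0.197 to 0.232, below the 0.249 of 12 h replicate 1 with untreated replicate 2. These values therefore do not settle the pairing for replicate 1. The numbers, which the labels give, were taken to pair the samples, and a second fit held the replicate number as a block.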

Additional observations from a re-analysis of the deposited data

Results flagged for a closer look

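Of the results named above, 2 moved one way in every same-numbered pair at 6 h and the other way in every pair at 12 h. They were 1 of the 19 tested members and 1 of the 32 other named probe sets. The pattern was found in 755 of all 27306 probe sets (2.76%). E2F3 203693_s_at was below untreated in its 3 pairs at 6 h and above in its 2 pairs at 12 h, and the difference at 12 h against 6 h was 0.463 ± 0.297 (log2, SE; limma adjusted p = 1; 0.268 ± 0.155 and adjusted p = 0.99 with the replicate block). CDKN1C 213348_at was likewise below at 6 h, by -1.83, -0.26 and -0.33, and above at 12 h, by 0.24 and 0.03. Its difference at 12 h against 6 h was 0.803 ± 0.507 (limma adjusted p = 1; 1.08 ± 0.42 and adjusted p = 0.99 with the block). Both times are set against the same untreated arrays.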

How the results depend on the processing

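In all 22 alternatives and all 3 comparisons 0 probe sets passed the test by limma, members included. At an unadjusted p under 0.05 the counts were 62 to 1201 at 6 h against untreated, 56 to 954 at 12 h against untreated and 61 to 1234 at 12 h against 6 h. The smallest adjusted p over the alternatives were 0.841, 0.217 (without 12 h replicate 3) and 0.617. With the replicate block 0 probe sets passed, with 1201, 791 and 827 at an unadjusted p under 0.05, against 172, 221 and 243 without it, and the block changed no call. For the brightest probe sets of the 9 genes, 31 of 195 values at 6 h and 33 of 195 at 12 h against untreated had the other sign under an alternative, and none passed. Centring each array on its median moved the median of all probe sets at 12 h against untreated to 0.59, against 0.00 as deposited. In both cases 7 of the 9 genes lay above the median of all probe sets. Centring shifts every probe set alike and cannot change that count, so it is no check of it. Other alternatives did change the count: it was 4 of 9 with array weights and 6 of 9 with 1 brightest probe set per gene. Past the filter at the 75th percentile it was 5 of 7. Dim probe sets, held up by the floor, limit what can be seen.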
